A study of Mus musculus with 23 samples.

Results

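The effect of 6 h at 4°C on brown adipose tissue (BAT) that lacks Mcu was described from 12 of the 23 RNA-sequencing libraries of the series, taken by genotype and temperature: 6 BAT-Mcu-KO mice at room temperature (RT) and 6 BAT-Mcu-KO mice at 4°C, across all 14651 genes measured. The other 11 libraries came from control mice, 6 at RT and 5 at 4°C, and are given only beside values of the BAT-Mcu-KO mice; they also entered the fit, and so the estimate of the spread. All mice were C57BL/6 males of 8 to 12 weeks, and all 4 groups were homozygous for an Mcu allele whose exon 2 lies between loxP sites (Mcu fl/fl). The BAT-Mcu-KO mice also carried Ucp1-Cre, in which the Ucp1 promoter drives the recombinase, so the allele was recombined in Ucp1-expressing cells, and the other cells of the fat pad kept it. In the cold protocol the mice were housed singly, in cages without bedding, and had no food unless stated otherwise, whereas the food given to the RT mice of this experiment is not stated in the sources used here, so cold, food withdrawal and new housing cannot be told apart. Values are normalised read counts, which are the reads of a gene in a library divided by the size factor of that library, and each change is the difference in mean log2(normalised count + 1), 4°C minus RT, with its standard error (SE). The threshold for a call was an adjusted p under 0.05 (limma over all 23 samples, Benjamini-Hochberg adjustment over the 14651 genes).

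Brown adipocytes burn lipid and glucose to make heat. Cold is sensed centrally, sympathetic nerves release noradrenaline in the tissue, beta-adrenergic receptors raise cAMP, and protein kinase A then releases fatty acids, opens the proton leak through uncoupling protein 1 and starts transcription through CREB. MCU is the pore of the mitochondrial calcium uniporter, which lets calcium into the matrix, where calcium is known to activate pyruvate dehydrogenase phosphatase and dehydrogenases of the citrate cycle. The comparison asks which transcriptional programmes of the cold response run in tissue without that channel.

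Mcu itself was low in all 12 libraries, at 15.2, 38.1 and 42.4 normalised counts (lowest, median and highest) at RT and 24, 36.3 and 39.9 at 4°C, with a log2 change of 0.00 ± 0.22 (adjusted p = 0.99). In control mice it stood between 81.4 and 136 at RT and between 70.8 and 132 at 4°C, so no BAT-Mcu-KO library overlapped a control library. Reads from the exons that remain after deletion, and from cells that do not express Cre, still count towards the gene. The 12 libraries held 8336445 to 21006347 reads, and neither log2 depth (two-sided exact permutation p = 0.461) nor the share of reads on mitochondrial transcripts (31.3% to 34.8% at RT, 32.0% to 34.1% at 4°C; exact permutation p = 0.136) passed 0.05. Depth was higher at 4°C without cold mouse 3, the shallowest (exact permutation p = 0.00866), and the mitochondrial share without RT mouse 5 (p = 0.013, exact permutation). All 16 markers of brown adipocytes were present, with summed normalised counts of 202488 to 227794 at RT, while the 8 measured markers of white adipocytes summed to at most 1971. Skeletal muscle transcripts set some libraries apart: the 16 muscle markers summed to 68538, 48224 and 54952 in RT mice 3, 4 and 6, to 87.4 to 4388 in the other RT mice, and to 112 to 12123 at 4°C. None of the 16 was called. In control the high libraries lay on the other side, with 48596 and 43059 in mice 2 and 5 at 4°C and at most 9237 at RT. Endothelial markers summed to 6936 to 9000.4 at RT and 10909 to 15895 at 4°C (5 of 12 called higher, 1 lower), and macrophage markers to 814 to 1497 and 1558 to 2062 (6 of 12 higher). Of 10 Schwann cell and nerve markers 1 was higher, Pmp22, which many other cells also express, and 3 were lower; without Pmp22 the remaining 9 summed to 1267 to 1696 at RT and 904 to 1396 at 4°C. Both lymphocyte markers measured were lower, Ighm, an immunoglobulin chain, at 79.9, 112 and 206 normalised counts at RT and 18.4, 31.7 and 136 at 4°C (-1.73 ± 0.33) and Cd79a, of the B cell receptor, at -1.91 ± 0.55. In a bulk sample, more cells of a type and more RNA per cell cannot be told apart, and the part of these shifts in the results below was not tested. The most counted endothelial marker, Eng, rose by 1.19 ± 0.11, and Pmp22, the most counted of the nerve list, by 1.45 ± 0.14.

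Cold changed 6349 genes in BAT-Mcu-KO mice (43.3% of those tested), 3136 of them higher (21.4%) and 3213 lower (21.9%), and 2170 (14.8%) by at least 2-fold, 938 higher and 1232 lower. With the 12 BAT-Mcu-KO samples alone 6595 genes were called. For 3552 genes (24.2%) the 6 cold mice did not overlap the 6 RT mice, and 3508 of those genes were among the called ones. The median log2 change over all genes was -0.02. Without the 3 muscle-rich RT libraries and the 2 of control, 4708 genes were called, of which 4514 were also called with all samples, each in the same direction.

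The largest relative rise belonged to Acot5, a peroxisomal acyl-CoA thioesterase (chr12:84069325-84076020, GRCm38), which went from 0 to 10.9 normalised counts at RT to 105, 425 and 987 (lowest, median and highest) at 4°C, a log2 change of 7.01 ± 0.54 (adjusted p = 1.4e-10). It was followed by 6030408B16Rik (6.56), Lrrc52, an auxiliary subunit of potassium channels (6.00), and Dgkg, a diacylglycerol kinase (5.94). These 4 genes had at least 1 RT library without a read, so the size of the log2 change depends on the pseudocount: that of Dgkg was 3.46 with a pseudocount of 10. Plk3, a stress-responsive kinase (chr4:117128655-117133963), rose by 5.54 ± 0.31, the tight-junction protein Cldn1 by 5.42 ± 0.49, the orphan nuclear receptor Nr4a3 by 5.42 ± 0.49 and the long non-coding RNA 3930402G23Rik by 5.25 ± 0.32. The 8 were ranked only among called genes with a mean of at least 100 and no overlap between RT and 4°C mice. Their separation was thus a condition of the choice, not a result.

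The deepest fall was that of Lep, the satiety hormone leptin (chr6:29060220-29073877), from 40.9, 198 and 448 normalised counts at RT to 0, 0.46 and 5.01 at 4°C, where 3 of the 6 mice had no read (log2 change -6.50 ± 0.58, adjusted p = 1.6e-09; -3.99 with a pseudocount of 10). The 3 highest RT values of Lep, 273 to 448, were those of the muscle-rich libraries, and the change was -5.35 without them. The log2 change was -5.17 for Klhdc7a, -4.42 for the lactate receptor Hcar1, -4.06 for the apelin receptor Aplnr, -3.90 for Lrrc15, -3.83 for the vessel-stabilising ligand Angpt1 and -3.71 for A530016L24Rik. A530020G20Rik, an antisense transcript (log2 change -4.14 ± 0.48), overlaps Slc44a3, and because strand was not used in counting, reads of the pair cannot be told apart. The 8 falls were ranked under the same conditions as the rises, so their lack of overlap was also set by the choice.

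Counted in reads rather than folds, the largest gains were those of Ucp1, Lpl, Gmpr, Gk and mt-Nd1. Ucp1, the uncoupling protein, went from 50590.2, 55252 and 64889 normalised counts to 145145, 156459 and 169144, that is from 0.445% to 1.18% of the reads, and lipoprotein lipase, Lpl, which frees fatty acids from circulating triglyceride, from 59658, 62426 and 79383 to 118074, 145773 and 149960.0. Gmpr, the enzyme that returns GMP to IMP (chr13:45507444-45553800; it overlaps Atxn1, and strand was not used in counting), had 653, 1829 and 3042 normalised counts at RT and 37257, 61553 and 85694 at 4°C, a log2 change of 5.12 ± 0.34 (adjusted p = 1.3e-11), and its share of reads went from 0.0146% to 0.458%. Glycerol kinase, Gk, which lets the cell re-esterify fatty acids, rose from 1639.5, 2533 and 4476 to 20859, 23439 and 26158 (3.16 ± 0.23). The mitochondrial transcript mt-Nd1 changed by 0.45 ± 0.17 (adjusted p = 0.032), and its call was lost without RT mouse 3, 4 or 5 or cold mouse 1, 2, 5 or 6 (0.42 to 0.45), or without the muscle-rich libraries (0.41).

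The largest losses of reads were those of Scd1, Fasn, Car3, Dgat2 and Thrsp. Scd1, the stearoyl-CoA desaturase, had 134114, 288122 and 353623 normalised counts at RT and 135445, 161573 and 194165 at 4°C, and the groups overlapped (log2 change -0.65 ± 0.22, adjusted p = 0.02). Fasn, the fatty acid synthase, had 66885, 195680.0 and 207270.0 at RT and 89156, 100156 and 129391 at 4°C (-0.68 ± 0.25, adjusted p = 0.029), again with overlap. Scd1 was no longer called without RT mouse 2 (-0.56), and Fasn without RT mouse 1, 2, 3, 4 or 6 or cold mouse 3, 4 or 5 (-0.66 to -0.61), and neither without the muscle-rich libraries (-0.60 and -0.46). Car3, a carbonic anhydrase abundant in fat (-1.12 ± 0.17), Dgat2, which makes the last step of triglyceride synthesis (-2.60 ± 0.19), and Thrsp, a lipogenic regulator (-2.91 ± 0.23), were lower in every cold mouse than in any RT mouse. The plot of single mice shows the rises and falls side by side.

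**Figure D1:**
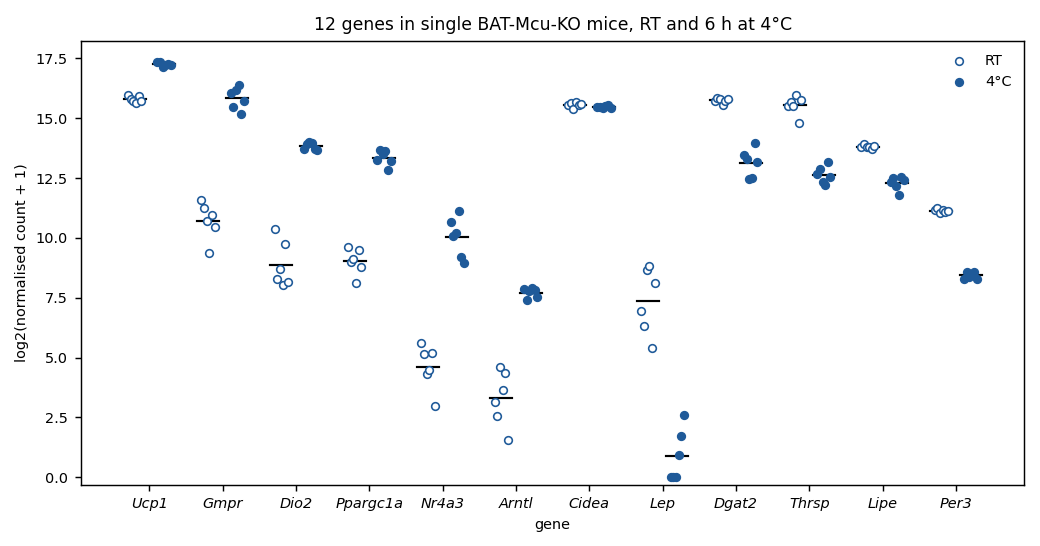
Normalised counts of 12 genes in each BAT-Mcu-KO mouse on a log2(count + 1) axis, with open circles for the 6 RT mice, filled circles for the 6 mice at 4°C and a bar at each group mean. Ucp1, Gmpr, Dio2, Ppargc1a, Nr4a3 and Arntl sit higher in every cold mouse, Lep, Dgat2, Thrsp, Lipe and Per3 lower in every cold mouse, and Cidea overlaps.

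Of 32 genes of beta-adrenergic and cAMP signalling, 11 were called higher and 7 lower (median log2 change 0.03), against 43.3% of all genes called. Adrb3, the brown fat receptor for noradrenaline, had 659, 908 and 1322 normalised counts at RT and 475, 1262 and 1758 at 4°C (0.23 ± 0.24, adjusted p = 0.47), and Adrb1 changed by -0.38 ± 0.25; neither receptor, both named after their values were seen, was called (Adrb1 was lower, -0.80, without the muscle-rich libraries). The cyclases moved in opposite directions, Adcy3 from 461, 842 and 1564 to 4393, 4804 and 5298 (2.48 ± 0.21) and Adcy9 from 293, 327 and 409 to 51.1, 76.6 and 112 (-2.08 ± 0.17), each without overlap. The phosphodiesterase Pde7b, which breaks down cAMP, rose by 2.12 ± 0.14, and so did the kinase A anchor Akap12 (2.27 ± 0.26), whereas the mitochondrial anchor Akap1 (-0.99 ± 0.11) and the receptor-desensitising Arrb1 (-0.96 ± 0.16) fell. Rgs2, the uncalled member with the most counts, had -0.07.

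Of 24 immediate early genes that CREB is known to drive, 16 rose and 0 fell (median 1.47). Nr4a3 went from 6.91, 28.2 and 47.5 normalised counts to 496, 1136 and 2224, its relative Nr4a1 from 83.7, 120.3 and 485 to 1769, 2256 and 2519 (3.69 ± 0.39), and the stress factor Atf3 from 5.38, 14.3 and 40.4 to 158, 221 and 297 (3.78 ± 0.35). The growth inhibitor Btg2, the most counted member without a call, had 0.59 ± 0.26 (called without RT mouse 3, 0.72, or cold mouse 2, 0.69). Averaged over the 24 genes, the cold mice stood 1.41 to 1.95 log2 units above the RT mean and the RT mice within -0.31 to 0.28 of it, so every cold mouse stood above every RT mouse.

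The cAMP response element, the palindrome TGACGTCA to which CREB binds, was searched on both strands in the 250 bases before each annotated start of a gene (12786 RefSeq promoters, GRCm38.p6, matched by symbol to 9982 of the 14651 genes). It was present for 301 of the 9982 genes (3.02%), for 98 of the 2312 called higher (4.24%) and for 44 of the 2330 called lower (1.89%). Among the 19 matched immediate early genes 3 held it (15.8%). Windows are shown for 3 genes that rose, with the element in capitals, to let the shared letters be seen: Dio2, the deiodinase that makes active thyroid hormone (4.96), Dusp1, a MAP kinase phosphatase (3.05), and the bZIP factor Maff (1.56). Dusp1 and Maff were chosen for display after their values were seen, and a match is a description, not a measured binding site.
Dio2, chr12:90739100-90739159 (- strand): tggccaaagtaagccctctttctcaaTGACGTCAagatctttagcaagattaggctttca
Dusp1, chr17:26508582-26508641 (- strand): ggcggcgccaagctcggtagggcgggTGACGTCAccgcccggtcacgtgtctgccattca
Maff, chr15:79347465-79347519 (+ strand): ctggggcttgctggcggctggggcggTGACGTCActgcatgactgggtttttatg

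Of 25 thermogenic genes, 11 rose and 4 fell. Dio2 went from 262, 359.7 and 1323 normalised counts to 13156, 14637 and 16473 (4.96 ± 0.32, adjusted p = 7.8e-12), and Ppargc1a, the coactivator PGC-1alpha that drives mitochondrial and thermogenic genes, from 275, 533 and 795 to 7278, 10765 and 13022 (4.33 ± 0.22, adjusted p = 1.1e-13). The groups did not overlap in either gene. Cidea, a lipid droplet protein and marker of brown fat, was not called and had 42803, 49059 and 51755 normalised counts at RT and 43977, 45202 and 48359 at 4°C (-0.09 ± 0.09, adjusted p = 0.48). The receptors for thyroid hormone and fatty acids were lower, Thra (-0.99 ± 0.12) and Ppara (-0.83 ± 0.18).

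The transcription factors that define brown fat also moved in both directions. Of 24 measured, 9 rose and 6 fell. Irf4, which couples cold to Ppargc1a, rose from 416, 545 and 1404 to 2055, 4155 and 14344 (2.75 ± 0.45), the nuclear receptor Esrrb from 0, 6.70 and 8.06 to 33.3, 44.0 and 65.5 (3.12 ± 0.47), and Cebpd by 1.52 ± 0.39; with a pseudocount of 10 the changes of Esrrb and Cebpd were 1.88 and 0.91. Cebpa, a factor of mature adipocytes, fell from 563, 848 and 1056 to 128, 164 and 305 (-2.23 ± 0.19), and Esrrg (-0.96 ± 0.22) and Ebf2 (-0.83 ± 0.15) were also lower. Nfia, with the most counts among the uncalled, had 0.17 ± 0.08 (called without cold mouse 4, 0.22).

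Genes of lipid synthesis mostly fell. Of 31 genes of de novo lipogenesis, 20 were lower and 4 higher (median -0.53). Srebf1, the transcription factor that drives them, had 1665, 2001 and 2936 normalised counts at RT and 259, 346 and 442 at 4°C (-2.60 ± 0.15); it was named after its value was seen. Pnpla3, a lipid droplet protein under its control, fell by 3.42 ± 0.59 on the log2 scale, and Dgat2 from 47563, 55586 and 59232 to 5621, 9626 and 15785. The 4 that rose were Gpam, which starts glycerolipid synthesis, at 1.63 ± 0.17, Insig2 at 0.83 ± 0.09, Dgat1 at 0.69 ± 0.14 and the oxysterol receptor Nr1h3 at 0.33 ± 0.09 (named after its value was seen, and not called without the muscle-rich libraries, 0.30). Elovl6 had -0.12 and was not called. RT mouse 5 stood 0.56 below the RT mean over the 31 genes and overlapped the cold mice, which lay 0.51 to 0.97 below it.

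The sterol branch was mixed, with 5 of 23 higher and 6 lower (47.8% called, against 43.3% of all genes), and Fdft1, the squalene synthase, fell by 2.25 ± 0.16. Among 22 genes of lipolysis and lipid droplets 6 rose and 9 fell, 68.2% called against 43.3% of all genes. The lipase Lipe went down from 13629, 14198 and 15513 to 3534, 5290.0 and 6051 normalised counts (-1.52 ± 0.11, adjusted p = 5.6e-11), together with G0s2, the inhibitor of the first triglyceride lipase (-1.78 ± 0.32), while Abhd5, the activator of that lipase, rose by 0.99 ± 0.09 and the droplet coat Plin2 by 0.99 ± 0.10. Of 15 genes of fatty acid delivery 5 rose and 4 fell, 60% called against 43.3% of all genes. Besides Lpl, the endothelial lipase Lipg (1.92 ± 0.24) and Gpihbp1, which carries LPL to the capillary wall (0.81 ± 0.11), were higher. The transporter Slc27a1 (-1.11 ± 0.17) and the scavenger receptor Scarb1 (-1.0 ± 0.12) were lower. Fabp4 had 0.01.

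Enzymes of mitochondrial beta-oxidation mostly did not rise. Of 27 genes 3 rose and 11 fell (median -0.17), 51.9% called against 43.3% of all genes. Most falls were small, such as Etfb at -0.50 ± 0.11 and Acot13 at -0.49 ± 0.10, with Acadl at 0.12 uncalled. The exception in size was the thioesterase Them4, which rose by 1.90 ± 0.09. In the peroxisome, where very long fatty acids are shortened, 7 of 23 rose and 11 fell, 78.3% called against 43.3% of all genes. Ehhadh, the bifunctional enzyme, was higher, at 3263, 4040.4 and 5287 normalised counts at RT and 5540.1, 7703 and 20519 at 4°C (1.05 ± 0.23). The importer Abcd2 (-1.40 ± 0.29) and the carnitine transferase Crot (-1.63 ± 0.17), which exports the products, were lower.

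**Figure D2:**
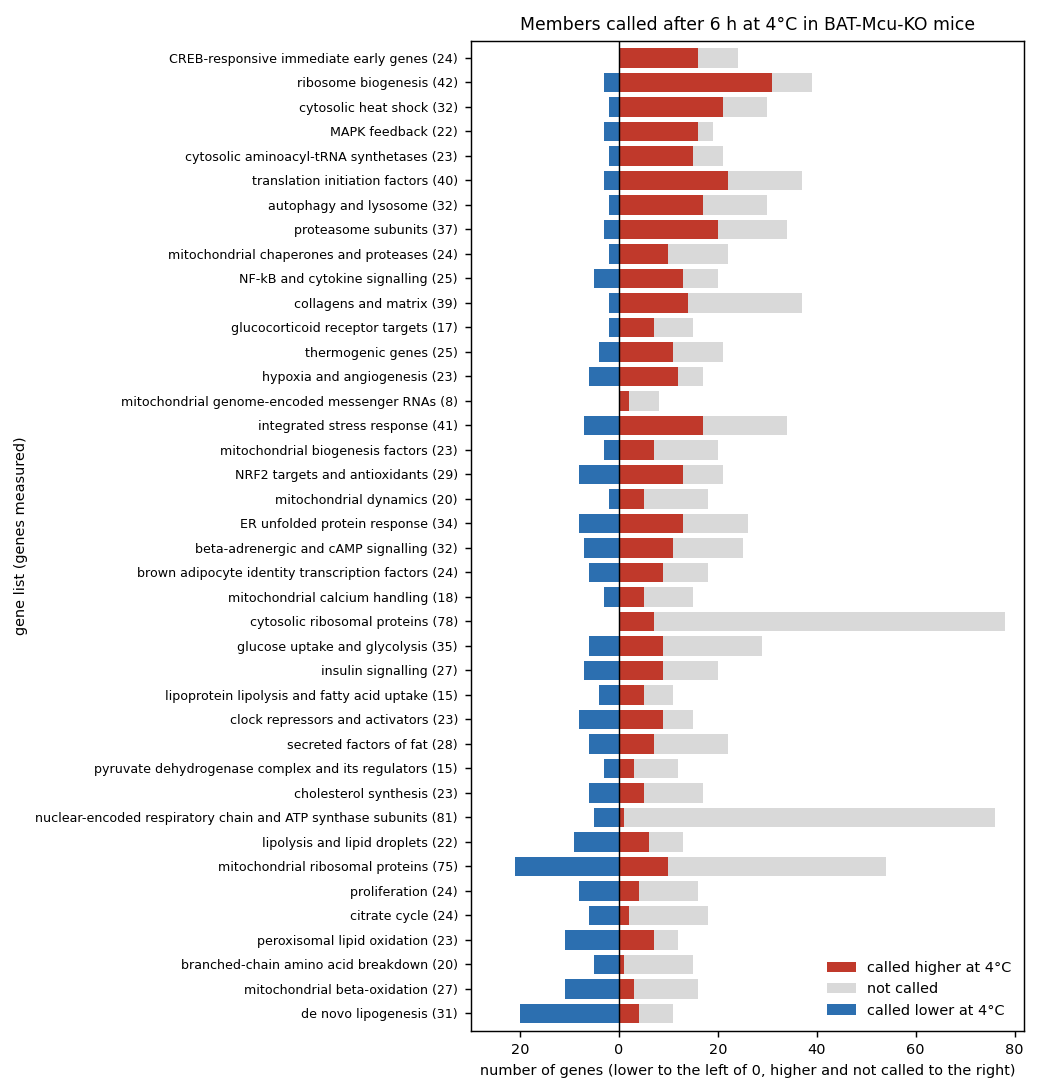
Number of members called higher (right of 0), called lower (left of 0) and not called (grey, right of the higher bars) by 6 h at 4°C in BAT-Mcu-KO mice, for each of the 40 gene lists (horizontal axis, number of genes). Immediate early genes (16 higher, 0 lower) and ribosome biogenesis (31 higher, 3 lower) lie on the right, de novo lipogenesis (4 higher, 20 lower) on the left, and of 81 nuclear-encoded respiratory chain and ATP synthase subunits 75 are grey.

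Of 35 genes of glucose uptake and glycolysis 9 were higher and 6 lower (median 0.03), 42.9% called against 43.3% of all genes, and without the muscle-rich libraries 12 and 5 (median 0.22). Pfkp, an isoform of phosphofructokinase, rose from 791, 981 and 1256 to 2617, 3139.6 and 3489.8 normalised counts (1.63 ± 0.11, adjusted p = 1.2e-11), Ugp2, which feeds glycogen synthesis, by 1.57 ± 0.23, and the glucose transporter Slc2a1 by 1.34 ± 0.15. The glycogen phosphorylases Pygb (-1.79 ± 0.18) and Pygl (-0.94 ± 0.23) fell. Aldoa, the most counted uncalled member, had 0.27 (called without RT mouse 3, 0.33, and without the muscle-rich libraries, 0.46). Pfkm, the phosphofructokinase of muscle, fell by 1.08 ± 0.22, but it was highest in the 3 muscle-rich RT libraries and its change was -0.60 without them.

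Calcium entry through the uniporter bears on pyruvate dehydrogenase, whose kinases switch the complex off and whose phosphatases switch it on. Of 15 genes of the complex and its regulators 3 rose and 3 fell, 40% against 43.3% of all genes. The kinase Pdk4, induced by fasting and fatty acids, rose from 16500.2, 18904 and 20961 to 28652, 38473 and 52504 normalised counts (1.03 ± 0.13, adjusted p = 4.2e-07), and the phosphatase Pdp2 from 1192, 1214 and 1562 to 2243, 2743 and 3275 (1.10 ± 0.12). Pdk2 (-0.67 ± 0.09) and Pdk1 (-0.68 ± 0.19) went the other way, and the catalytic subunit Pdha1 had -0.19 and was not called, except without RT mouse 5 (-0.29). Pdp1, the phosphatase that calcium is known to activate, stood at 77.7, 112 and 139 at RT and 106, 138 and 149 at 4°C (0.32 ± 0.15, adjusted p = 0.1); it was named after its value was seen. It was called without RT mouse 3 (0.39) and without the muscle-rich libraries (0.65). In control the changes were 1.32 for Pdk4, 0.90 for Pdp2 and 0.37 for Pdp1, and the difference between genotypes had an adjusted p of 0.86, 0.90 and 0.98 (limma).

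Few transcripts downstream of the complex were called. Of 24 citrate cycle and citrate export genes 2 rose and 6 fell, 33.3% called against 43.3% of all genes. The falls were led by the cytosolic aconitase Aco1 (-1.32 ± 0.12) and the citrate carrier Slc25a1 (-1.07 ± 0.30), which supplies lipogenesis. Slc25a1 was not called without the muscle-rich libraries (-0.78). Of 81 nuclear-encoded subunits of the respiratory chain and ATP synthase 1 rose, cytochrome c (Cycs, 0.47 ± 0.08), 5 fell and 75 were not called (median -0.08). The same list had 38 members lower and 2 higher in control (median -0.25), and the mitochondrial ribosomal proteins 21 lower and 10 higher of 75 in BAT-Mcu-KO against 33 and 7 in control. No member of either list passed the test of the difference between genotypes, and 1 of the 81 and 3 of the 75 had an unadjusted p under 0.05 in it, against 5.99% of all genes. Whatever their p, only 4 of the 81 and 10 of the 75 had a lower log2 change in BAT-Mcu-KO than in control, against 48.0% of all genes. No test was run over a list. Of the 8 measured messenger RNAs of the mitochondrial genome 2 were called higher, mt-Nd6 (0.47 ± 0.13) and mt-Nd1, with mt-Co1 at -0.05. Of 20 genes of branched-chain amino acid breakdown, another fuel of brown fat, 1 rose and 5 fell, 30% called against 43.3% of all genes.

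**Figure D3:**
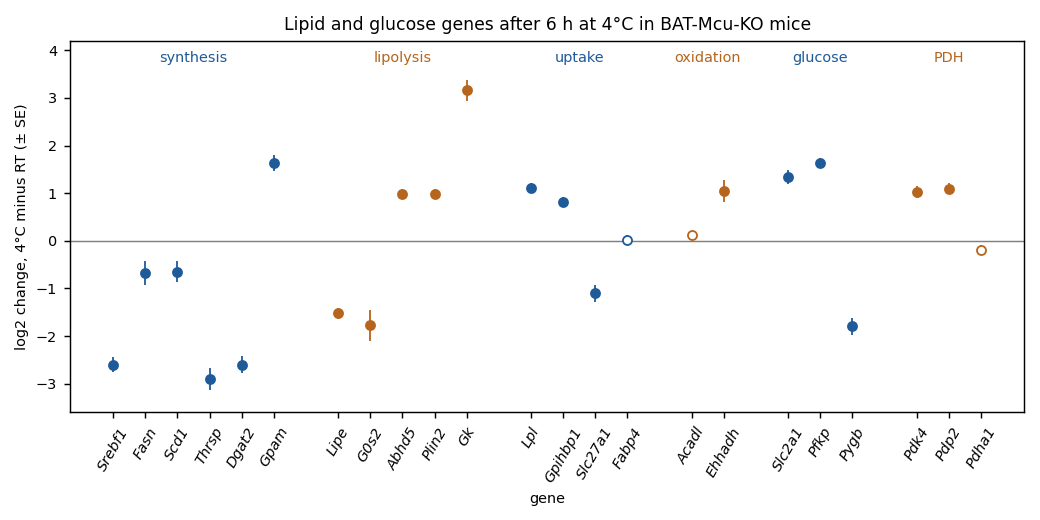
Log2 change after 6 h at 4°C in BAT-Mcu-KO mice, with bars of 1 SE, of 23 genes of lipid and glucose use grouped by role, filled where called and open where not (PDH, pyruvate dehydrogenase). Lipogenic genes such as Dgat2 (-2.60) lie below 0 and Gk (3.16), Pfkp (1.63), Lpl (1.11) and Pdk4 (1.03) above it.

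Other routes for mitochondrial calcium were examined in the tissue that lacked the uniporter pore. Of 18 genes 5 rose and 3 fell, 44.4% against 43.3% of all genes. Smdt1, which encodes the uniporter subunit EMRE, had 1734, 1998 and 2271 normalised counts at RT and 1725, 1942 and 2254 at 4°C (-0.02 ± 0.08); it was named after its value was seen and was not called. The clearest change was in calcium-regulated carriers of ATP-Mg and phosphate: Slc25a25 rose from 29.0, 63.6 and 101 to 255, 361 and 830.1 (2.85 ± 0.37, adjusted p = 6.8e-07), Slc25a24 by 1.37 ± 0.19, and Slc25a23 fell by 0.94 ± 0.15. The changes of these 3 in control were 2.31, 1.57 and -0.87, and the difference between genotypes had an adjusted p of 0.91, 0.94 and 0.97 (limma). The outer-membrane channel Vdac1 was lower (-0.41 ± 0.10; -0.25 and not called without the muscle-rich libraries) and Vdac2 had 0.10.

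Among 23 factors of mitochondrial biogenesis 7 rose and 3 fell, 43.5% against 43.3% of all genes. Perm1, a partner of PGC-1 and ERR, rose from 276, 317 and 396 to 1133, 1742 and 2267 (2.36 ± 0.22), the replicative helicase Peo1 by 0.69 ± 0.12 and the transcription factor Gabpa by 0.65 ± 0.16, and the polymerase subunit Polg2 (-1.25 ± 0.19) and the deacetylase Sirt3 (-0.64 ± 0.10) fell. Fusion and fission genes changed for 7 of 20 (5 higher, 2 lower), 35% against 43.3% of all genes. The fission adaptor Mff, for example, changed by 0.45 ± 0.07 (0.28 after quantile normalisation). Of 24 mitochondrial chaperones and proteases 10 rose and 2 fell (50% called), with the co-chaperonin Hspe1 at 1.09 ± 0.15 and the import chaperones Timm8a1 at 1.13 ± 0.19 and Timm10 at 0.85 ± 0.13.

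The integrated stress response joins kinases of eIF2alpha to the transcription factor ATF4, which turns on amino acid transport, serine and one-carbon metabolism and tRNA charging. Of its 41 measured genes 17 rose and 7 fell in cold BAT-Mcu-KO mice (median 0.33). Atf4 went from 455, 512 and 585 normalised counts to 1417, 2069 and 2218 (1.88 ± 0.10; named after its value was seen), and the amino acid transporter subunit Slc3a2 from 509, 609 and 877 to 3429.9, 4907 and 6282 (2.93 ± 0.16, adjusted p = 6.1e-13). Every cold mouse exceeded every RT mouse in both. The hormone Fgf21 went from 0, 2.15 and 8.06 to 3.29, 18.7 and 68.4 (2.74 ± 0.59), with the lowest cold mouse inside the RT range, and its change was 1.32 with a pseudocount of 10. Cbs, of cysteine synthesis, rose by 2.61 ± 0.49.

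Other members of the same list went down or stayed. The glutamine transporter Slc1a5 fell from 2849, 5375 and 7844 to 724, 1468 and 2053 (-2.02 ± 0.31), the serine-making phosphatase Psph by 1.25 ± 0.15, and the translation repressor Eif4ebp1 by 1.02 ± 0.09; Vldlr had -0.07. Asns, the asparagine synthetase, stood at 697, 837 and 891 and 756, 908 and 980.3 (0.11 ± 0.10), and Chac1, which breaks down glutathione, at 21.4, 94.9 and 141 and 24.8, 80.4 and 144 (-0.07 ± 0.42, adjusted p = 0.91); both were named after their values were seen, and in both the groups overlapped. Of 23 cytosolic tRNA synthetases and partners 15 rose and 2 fell, Yars by 0.96 ± 0.10 and Iars by 0.93 ± 0.11 for example, and Kars, with -0.11, was not called.

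ATF4 and its partners bind C/EBP-ATF response elements, searched here as TGATGNAA on both strands. The element was found before 237 of the 9982 genes (2.37%) and before 8 of the 34 matched members of the stress list (23.5%), but the matched members called higher held it in 1 of 14 (7.14%), Fgf21. Of the matched tRNA synthetases 3 of 15 held it (20%), all 3 of them among the 11 called higher (27.3%). The windows of 2 genes that rose, Fgf21 and, from the immediate early list, Atf3, and of 2 that were not called, Chac1 and Asns, are set together to show that the element stands before both kinds; in Fgf21, Atf3 and Chac1 it is read from the opposite strand. Windows are written 5′ to 3′ along the strand of the gene.
Fgf21, chr7:45615596-45615655 (- strand): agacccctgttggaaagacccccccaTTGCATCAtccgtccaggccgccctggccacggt
Atf3, chr1:191183410-191183469 (- strand): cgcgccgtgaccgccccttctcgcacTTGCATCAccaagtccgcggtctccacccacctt
Chac1, chr2:119351023-119351082 (+ strand): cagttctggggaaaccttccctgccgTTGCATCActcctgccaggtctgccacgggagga
Asns, chr6:7693210-7693258 (- strand): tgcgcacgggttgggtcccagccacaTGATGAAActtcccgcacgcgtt

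Whether the cold response differed from that of control mice was tested as the difference between the 2 changes, gene by gene. With limma 0 genes passed (0%), and 878 (5.99%) had an unadjusted p under 0.05; without cold control mouse 1 the gene Megf9 passed. With edgeR 0 passed (1051 with an unadjusted p under 0.05), and with DESeq2 28 (1069). In control, 6735 genes (46.0%) were called by cold. The smallest p was that of Mthfd2, the mitochondrial one-carbon enzyme and an ATF4 target. It stood at 25, 33.7 and 40.5 normalised counts in RT BAT-Mcu-KO mice and 29.4, 72.1 and 114 in cold ones, against 15.5, 27.4 and 44.5 in RT control mice and 178, 209, 156, 157 and 344 in the 5 cold control mice. All 5 cold control values lay above the highest cold BAT-Mcu-KO value, but the gene was picked by its p from these same values, so this is not a further test. The log2 change was 0.87 ± 0.28 in BAT-Mcu-KO (not called without cold mouse 2, 0.69) and 2.85 ± 0.30 in control, a difference of -1.99 ± 0.41 (unadjusted p = 5.6e-05, adjusted p = 0.70).

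Of the 41 stress-response genes, 12 (29.3%) had an unadjusted p under 0.05 for that difference, 11 of them with the lower log2 change in BAT-Mcu-KO, and 31 of 41 had a lower log2 change than in control whatever their p, against 48.0% of all genes. Such a p was also found for 5 of 23 tRNA synthetases and partners and 6 of 32 heat shock genes, all with the lower change in BAT-Mcu-KO. Of 24 immediate early genes 4 had it, 3 of them with the higher change. Without the muscle-rich libraries these 3 lists had 0, 3 and 6. The median change of the stress-response list was 0.33 in BAT-Mcu-KO and 0.75 in control. Named after their values were seen, Chac1 changed by -0.07 against 1.81 ± 0.44 (difference -1.88 ± 0.61), Fgf21 by 2.74 against 5.29 ± 0.62 (difference -2.55 ± 0.86) and Atf3, of the immediate early list and not one of the 41, by 3.78 against 5.49 ± 0.37 (difference -1.71 ± 0.51). All 3 missed the threshold after adjustment over the 14651 genes, in limma and in both count tests. The 28 genes that DESeq2 called included Mthfd2 and the immediate early gene Egr1 (adjusted p = 0.016 for each). Egr1 went the other way, with a DESeq2 log2 change of 0.47 in BAT-Mcu-KO and -2.61 in control. Also among the 28 were the muscle sarcomere genes Ankrd2, Actn2, Tnnc1, Myl3, Tnnt1, Myoz2 and Ldb3, named, like Egr1, after their values were seen. Among RT BAT-Mcu-KO mice, Chac1 was highest in the muscle-rich mice 3, 4 and 6, at 132, 141 and 117 normalised counts. The other RT mice had 21.4 to 72.4. Atf3, Mthfd2 and Fgf21 did not separate these mice. Atf3 stood at 40.4, 5.38 and 17.8 in RT mice 3, 4 and 6 and at 10.2 to 19.8 in the others. Mthfd2 stood at 34.8, 31.4 and 40.5, with RT mouse 5 at 36.2. Fgf21 stood at 1.88, 8.06 and 2.96, with RT mouse 2 at 2.41. Without the muscle-rich libraries of both genotypes 3 of the 41 genes had an unadjusted p under 0.05, against 5.01% of all genes. All 3 were among the 12, Mthfd2 and Slc7a1 with the lower change in BAT-Mcu-KO and the eIF2alpha kinase Eif2ak2 with the higher, the last 2 named after their values were seen. In that fit the changes were 0.72 against 1.54 for Chac1 (difference -0.82 ± 0.65), 3.40 against 4.86 for Fgf21 (difference -1.46 ± 1.02), 3.91 against 5.55 for Atf3 (difference -1.63 ± 0.51) and 0.96 against 2.57 for Mthfd2 (difference -1.61 ± 0.50). The unadjusted limma p for these 4 differences was 0.22, 0.17, 0.0042 and 0.0041, and 0 genes passed after adjustment. That fit holds fewer mice, and the part of muscle RNA was not tested further.

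**Figure D4:**
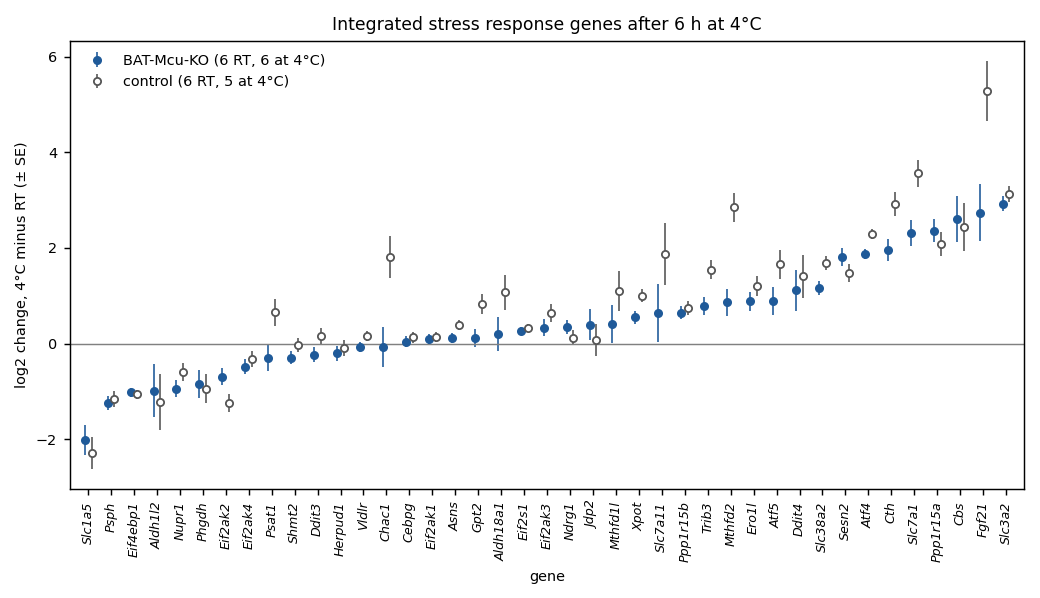
Log2 change after 6 h at 4°C of the 41 measured integrated stress response genes in BAT-Mcu-KO mice (filled circles) and control mice (open circles), with bars of 1 SE, ordered by the change in BAT-Mcu-KO. Slc3a2 and Slc1a5 lie close together in both genotypes (2.93 and 3.13, -2.02 and -2.29), whereas Chac1, Mthfd2 and Fgf21 lie apart (-0.07 and 1.81, 0.87 and 2.85, 2.74 and 5.29); no gene passed the adjusted test of the difference.

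Chaperones of the cytosol rose together. Of 32 heat shock genes 21 were higher and 2 lower (median 0.75). Hspa8, the constitutive HSC70, went from 1239.8, 1785 and 2167 normalised counts to 7251, 9220.3 and 11935 (2.43 ± 0.15, adjusted p = 2.1e-12), Hsp90aa1 from 248, 396 and 677 to 1307, 1828 and 3423 (2.36 ± 0.28), and Hspa1a from 0.93, 3.52 and 8.45 to 9.59, 24.2 and 37.5 (2.25 ± 0.50). Hspa1a has a near-identical neighbour, Hspa1b, with which it can share reads, and its change was 1.19 with a pseudocount of 10. The 2 members that were lower, Hspb6 (-1.61 ± 0.49) and Cryab (-1.10 ± 0.40), are abundant in muscle, were highest in the muscle-rich RT libraries, and changed by -0.55 and -0.05, with neither called, without those libraries; Cryab was also not called without RT mouse 3, 4 or 6 or cold mouse 3 or 4 (-1.02 to -0.84). Fkbp4 had -0.09.

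Heat shock factor 1 binds arrays of GAA blocks, searched as GAANNTTC, which reads the same on both strands. It stood before 620 of 9982 genes (6.21%), before 7 of the 25 matched heat shock genes (28%) and before 4 of the 16 of them called higher (25%). The windows of 3 members that rose show one match or a pair: Hspb1 (1.24), Dnaja1 (1.11), both chosen after their values were seen, and Hspa1a.
Hspb1, chr5:135887776-135887855 (+ strand): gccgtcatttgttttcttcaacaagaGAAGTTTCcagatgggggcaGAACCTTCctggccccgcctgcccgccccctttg
Dnaja1, chr4:40722318-40722377 (+ strand): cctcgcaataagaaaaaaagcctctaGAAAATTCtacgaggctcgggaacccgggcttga
Hspa1a, chr17:34972227-34972286 (- strand): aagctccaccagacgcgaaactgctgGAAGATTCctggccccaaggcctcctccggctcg

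In the endoplasmic reticulum, 13 of 34 unfolded protein response genes rose and 8 fell: the co-chaperones Dnajb9 (1.57 ± 0.12), Sdf2l1 (1.46 ± 0.35) and the secreted factor Manf (1.38 ± 0.15) were higher, while the disulfide isomerase Pdia4 (-0.92 ± 0.14) and the mannosidase-like Edem2 (-0.71 ± 0.11) were lower. Of 37 proteasome genes 20 rose and 3 fell. The rises included core and cap subunits, Psma1 by 1.02 ± 0.12 and Psmc2 by 0.64 ± 0.09, and the 3 falls were the interferon-inducible catalytic subunits Psmb9 (-1.77 ± 0.20), Psmb10 (-0.89 ± 0.15) and Psmb8 (-0.79 ± 0.22). Psmb9 went from 112, 137 and 219 to 31.0, 39.0 and 62.2 normalised counts, with no overlap. The lymphocyte markers given above were lower beside these 3 subunits, and their part was not tested.

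Most genes of ribosome assembly rose: 31 of 42 were higher and 3 lower (median 0.56), with Rrp12, Gnl3 and Nop2 at 1.59 ± 0.14, 1.45 ± 0.15 and 1.25 ± 0.09 and the pseudouridine synthase Dkc1 (-0.73 ± 0.11) among those lower. Translation initiation factors followed, 22 of 40 higher and 3 lower, led by Eif1a (1.82 ± 0.11) and Eif2b3 (1.45 ± 0.12), a subunit of the exchange factor that phosphorylated eIF2 inhibits. Of the 78 ribosomal proteins 7 rose, Rps6 by 0.52 ± 0.10 for example, 0 fell and 71 were not called (median 0.09). Of 32 autophagy and lysosome genes 17 rose and 2 fell, Atg101 from 344, 443 and 502 to 1414, 1679.8 and 1918 (1.92 ± 0.12), Flcn, a regulator of nutrient sensing at the lysosome, by 1.47 ± 0.10, and Gabarapl1 by 1.23 ± 0.10. Among 29 antioxidant genes 13 rose and 8 fell. Hmox1, the haem oxygenase, went from 60.2, 79.9 and 104 to 469.7, 609 and 1092 (3.11 ± 0.27), the zinc importer Slc39a14 rose by 2.15 ± 0.29 and the metallothionein Mt2 by 2.11 ± 0.29, while the plasma peroxidase Gpx3 (-0.55 ± 0.13) fell and Sod2 had 0.05.

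Of 23 clock genes 9 rose and 8 fell. The activators rose, Clock by 1.08 ± 0.10, and the D-box activators fell, Dbp by 0.94 ± 0.28 and Tef by 0.61 ± 0.11; these 3 were named after their values were seen. Arntl, the activator BMAL1, went from 1.97, 9.71 and 23.5 normalised counts to 170.1, 223 and 239.6 (4.41 ± 0.37, adjusted p = 7.2e-10), its partner Npas2, a paralogue of Clock, from 0, 0 and 3.62 to 0, 8.26 and 26.5 (2.35 ± 0.71; 0.73 with a pseudocount of 10, and not called without the muscle-rich libraries, 1.98), and the repressor Nfil3 from 66.9, 74.7 and 170.0 to 360.4, 658 and 1001 (2.83 ± 0.28). Hlf fell from 375, 397 and 445 to 65.5, 95.9 and 137 (-2.04 ± 0.14), and Per3, a target of such factors, from 2129, 2253 and 2456 to 309, 346 and 383 (-2.71 ± 0.09, adjusted p = 1.2e-16). The hour of harvest is not given in the sources used here, so time of day and cold cannot be told apart. The promoter of Per3 is shown because Nfil3 and Hlf compete for D-boxes: it holds 2 matches to TTATGNAA, a motif found on either strand before 2.32% of all matched genes.
Per3, chr4:151044790-151044896 (- strand): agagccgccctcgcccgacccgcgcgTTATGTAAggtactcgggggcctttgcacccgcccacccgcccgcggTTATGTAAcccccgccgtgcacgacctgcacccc

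Of 17 glucocorticoid receptor targets 7 rose and 2 fell, 52.9% called against 43.3% of all genes. The EGF receptor inhibitor Errfi1 rose from 189, 277 and 428 to 1419.9, 2175 and 5080.1 (3.09 ± 0.33), the cell cycle inhibitor Cdkn1a by 1.82 ± 0.19 and the kinase Sgk1 by 1.79 ± 0.15. The phosphoinositide 3-kinase regulator Pik3r1 fell from 813, 1072 and 1195 to 160.1, 185 and 246 (-2.41 ± 0.14). Tsc22d3 had 0.44 ± 0.25 and was called only without RT mouse 3 (0.62) or the muscle-rich libraries (0.82). Of 27 insulin signalling genes 9 rose and 7 fell (59.3% called). The receptor Insr (0.91 ± 0.11) and the kinase Pdpk1 (1.02 ± 0.11) were higher, and Akt2, the isoform that drives glucose uptake in fat, went down from 1887, 2381 and 2544 to 784, 1019 and 1117 (-1.24 ± 0.10, adjusted p = 1.3e-10), with the adaptor Grb14 (-1.28 ± 0.19).

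In the MAPK feedback list 16 of 22 genes were higher and 3 lower (median 1.00), 86.4% called against 43.3% of all genes. Besides feedback inhibitors of MAP kinases it holds the kinases Plk3, given above, and Map3k6 (0.05, not called). The ERK phosphatase Dusp6 went from 162, 267 and 400.4 to 1844, 2025 and 2182 (3.01 ± 0.23) and Spry4 rose by 2.61 ± 0.25, while Dusp14 (-2.70 ± 0.41) fell. In the genes of secreted factors 7 of 28 rose and 6 fell, 46.4% against 43.3% of all genes. Lep fell as given above, and the activin antagonist Fst rose from 19.5, 40.0 and 58.2 to 145, 246 and 799 (2.86 ± 0.34), the galectin Lgals3 by 1.69 ± 0.27 and Metrnl by 1.21 ± 0.16, while Wnt11 (-1.92 ± 0.33) and Igfbp5 (-1.53 ± 0.20) fell. Cfd, the abundant adipokine adipsin, had 0.03. Of 23 hypoxia and vessel genes 12 rose and 6 fell (78.3% called). The collagen prolyl hydroxylase P4ha1 (2.21 ± 0.23) and endothelin, Edn1 (1.68 ± 0.26), were higher, and Aplnr, Angpt1 and Angptl2 (-2.12 ± 0.17) lower, with Angpt1 going from 135, 200.1 and 258 to 6.39, 14.1 and 18.4.

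In the matrix, 14 of 39 genes rose and 2 fell (41.0% called; 21.4% of all genes rose and 21.9% fell). The collagen cross-linker Lox went from 172, 235 and 279.9 to 1073, 1174 and 1884 normalised counts (2.47 ± 0.18), the protease Adam12 rose by 2.52 ± 0.12 and the growth factor Ctgf by 1.94 ± 0.30, and the laminin chain Lama4 (-1.08 ± 0.14) fell; the abundant Sparc had -0.03. Of 25 genes of NF-kB and cytokine signalling 13 rose and 5 fell, 72% called against 43.3% of all genes. The TNF receptors Tnfrsf1b (3.03 ± 0.50) and Tnfrsf1a (1.60 ± 0.09) and the cytokine signal inhibitor Socs2 (2.82 ± 0.24) were higher. Cish (-2.62 ± 0.42), a relative of Socs2, was lower. Among 24 proliferation genes 4 rose and 8 fell, 50% called against 43.3% of all genes. The change had opposite senses for 2 partners of the G1 to S transition, E2f2 (2.51 ± 0.41) and cyclin E1, Ccne1 (-2.07 ± 0.47). The endothelial and macrophage markers that were higher and the lymphocyte markers that were lower, given above, moved beside these lists, and their part was not tested.

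Taking the mean over each list in every mouse, relative to the RT mean, shows how far the 6 cold mice spread. The immediate early list lay at 1.41 to 1.95 in the cold mice, the MAPK feedback list at 0.86 to 1.28, the heat shock list at 0.62 to 0.94, the thermogenic list at 0.71 to 0.91, ribosome biogenesis at 0.36 to 0.64 and the stress-response list at 0.27 to 0.61, none of them overlapping the RT mice. Lists with smaller shifts were also apart, such as beta-adrenergic and cAMP signalling (0.19 to 0.31) and mitochondrial biogenesis (0.12 to 0.33), so a lack of overlap does not single out the first 6. A mean can rest on part of a list: the median change of the thermogenic members was 0.11, with 9 of 25 at least 2-fold higher and 10 not called. The spread was wide in the matrix list (0.26 to 0.97, no overlap) and in the clock list (-0.03 to 0.35, with overlap). The lists for lipogenesis, the citrate cycle, beta-oxidation, glycolysis and the respiratory chain overlapped between RT and 4°C mice, with cold medians of -0.69, -0.13, -0.08, 0.02 and -0.12. Members of a list were chosen by function, so these means are descriptions of the mice and carry no test.

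**Figure D5:**
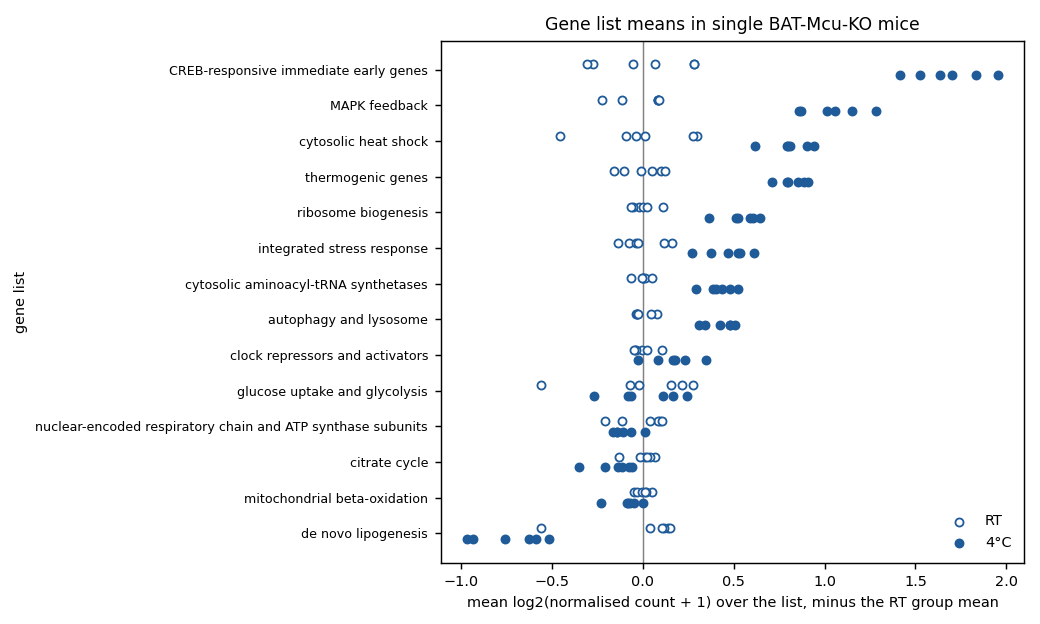
Mean log2(normalised count + 1) over the members of 14 gene lists in each BAT-Mcu-KO mouse, relative to the RT group mean at 0, with open circles for RT and filled circles for 4°C. In the immediate early, MAPK feedback, heat shock, thermogenic, ribosome biogenesis and stress-response lists all cold mice lie to the right of all RT mice, while the lipogenesis list lies to the left in the cold mice, with 1 RT mouse among them.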

How the data were processed

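BAT RNA was sequenced by the authors with a Smart-seq2 protocol as paired reads of 25 bases, aligned to mm10 with STAR 2.4.0j and counted per GENCODE gene with HTSeq without strand; a gene was kept if 6 or more samples had 8 or more of its reads, and the deposited signal is the count divided by a DESeq2 size factor. Libraries are from separate mice. The deposited columns of fold changes and p-values of the authors were not used. The reads were recovered from the size of 1 read in each library (100% of values within 0.05 of a whole number in the 12 BAT-Mcu-KO libraries), and PCR copies are counted as reads, so counting error is understated. limma 3.58.1 with a variance trend was fitted to log2(normalised count + 1) with 4 group means over the 23 samples, and tested on simulated data. The simulated data had 200 of 14651 genes changed by cold in BAT-Mcu-KO. There limma found 54 of 60 genes changed 4-fold, 39 of 58 changed 2-fold and 17 of 82 changed 1.5-fold, with 4 false calls. In the data 43.3% of genes were called, a far larger share, so these rates need not hold for them. DESeq2 1.42.0 and edgeR 4.0.16 on the recovered reads, other pseudocounts, filters and scalings, and single libraries left out were alternatives; leaving out 5 muscle-rich libraries was added after the data were seen. Members, gene lists and the naming rule were chosen with earlier results of these data known. The rule named Mcu, the 8 largest called rises and falls with a mean of at least 100 and no overlap, the 5 largest rises and falls in count, in each list up to 3 called members per direction and the most counted uncalled one, the gene of smallest p for the difference between genotypes, and the most counted marker of a cell type. Some genes that the rule names are not reported here. Promoters and positions came from RefSeq and GENCODE M21 on GRCm38.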

Additional observations from a re-analysis of the deposited data

Results flagged for a closer look

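Among the 406 groups formed by 203 genes named above and the RT and cold BAT-Mcu-KO mice, 30 (7.39%) held 1 mouse whose gap to the nearest other mouse took up more of the range of the group, on the log2 scale, than the critical share of Dixon's test. Chance alone gives about 1 group in 20. RT mouse 5 held 9 of them, all low, in normalised counts: A530016L24Rik at 735 (the other 5 mice 1042 to 1219), A530020G20Rik at 61.3 (the other 5 mice 96.7 to 124), Fasn at 66885 (the other 5 mice 180898 to 207270.0), Elovl6 at 5646 (the other 5 mice 9731 to 11495), Fdft1 at 1193 (the other 5 mice 1736 to 2163), Pygl at 4889.9 (the other 5 mice 10798 to 13372), Aldoa at 29250.2 (the other 5 mice 48315 to 57374), Pdk1 at 823 (the other 5 mice 1440.1 to 1677) and Slc25a1 at 4747 (the other 5 mice 13768 to 18962). Fasn, Elovl6, Fdft1 and Slc25a1 belong to fatty acid, sterol or citrate handling. With this mouse in the RT group Elovl6 and Aldoa were not called, and the rest of the 9 were called lower at 4°C. RT mouse 1 was low in Yars at 267 (the other 5 mice 329 to 335). RT mouse 2 was high in Plin2 at 8746 (the other 5 mice 7092 to 7295) and Npas2 at 3.62 (the other 5 mice 0). RT mouse 4 was low in Mcu at 15.2 (the other 5 mice 36.2 to 42.4), Dgkg at 0 (the other 5 mice 0.86 to 1.21) and Gpam at 1487 (the other 5 mice 2137 to 2384). RT mouse 6 was low in Rgs2 at 661 (the other 5 mice 1792 to 3116), Esrrb at 0 (the other 5 mice 4.70 to 8.06) and Polg2 at 64.2 (the other 5 mice 84.6 to 99.4). Cold mouse 1 was high in Timm10 at 2436 (the other 5 mice 1504 to 1682) and Ighm at 136 (the other 5 mice 18.4 to 33.8) and low in Tef at 791 (the other 5 mice 1019 to 1145). Cold mouse 3 was high in Polg2 at 60.7 (the other 5 mice 28.9 to 38.0). Cold mouse 4 was high in Rps6 at 642 (the other 5 mice 462 to 513) and low in Pdha1 at 13469.6 (the other 5 mice 15815 to 16954). Cold mouse 5 was high in Cebpa at 305 (the other 5 mice 128 to 167). Cold mouse 6 was high in Pmp22 at 3797 (the other 5 mice 2501 to 2814), Lgals3 at 413 (the other 5 mice 105 to 156) and Cish at 115 (the other 5 mice 50.3 to 67.4) and low in Lpl at 118074 (the other 5 mice 145032 to 149960.0) and Igfbp5 at 60.9 (the other 5 mice 102 to 137).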

How the results depend on the processing

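The count of genes called by cold in BAT-Mcu-KO mice (6349) stayed within 1.5 times under every alternative run, from 4708 without the muscle-rich libraries and 5070 with a mean of at least 50 to 6618 with DESeq2, and leaving out single libraries gave 5871 to 6230. The count at 2-fold (2170) moved to 1335 with a pseudocount of 10, which shrinks low genes, and to 1152 with a mean of at least 50 and 1243 with at least 8 in every sample, where fewer genes were tested; single libraries gave 2043 to 2273. The difference between genotypes gave 28 calls with DESeq2 and 0 to 1 without single libraries, the 1 without control mouse 1 at 4°C; the cause was not tested. The difference in log2 depth ranged from 0.049 to 0.32 and that in the mitochondrial share from 0.77 to 1.47 percentage points without single libraries. Same-numbered RT and cold BAT-Mcu-KO mice did not deviate together over all genes (r -0.20 to -0.025 over 6 pairs, none best matched to its own number). A correlation over all genes cannot show a pairing that acts on few genes, and what the numbers stand for is not stated in the sources used here. With the replicate block 6376 genes were called, 2155 of them at 2-fold, 0 differed between genotypes, and of the genes named Btg2 gained a call. Of 178 called genes named in the text, 11 lost the call under some alternative and none changed sign. The text leaves out some genes of the naming rule that lost the call, so this count does not stand for the whole rule. The rule gave 240 called genes. Of these 240, 19 lost the call without 1 library and 27 without the muscle-rich libraries, where 0 had the opposite sign. Depth limits the genes with few or no reads at RT, whose fold depends on the pseudocount.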
